A study of Mus musculus with 6 samples.

Results

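The 10 genes described here belong to the circadian clock, and all 10 were found by their symbols among the 35673 rows of the deposited count table. They are Per1, Per2, Per3, Cry1, Clock, Nr1d1, Nr1d2, Dbp, Tef and Ciart, and they were picked by name. Earlier results of these data were known when they were chosen. RNA sequencing was done on mouse cornea in 6 libraries, 3 titled Control and 3 titled Cationorm. Animals were C57BL/6J males, 6 to 8 weeks old, housed on a 12-hour light/dark cycle. Cationorm is a cationic oil-in-water eye drop. In the protocol, dry eye was induced with drops of 0.1% benzalkonium chloride (an irritant eye-drop preservative) together with contact lenses worn 6 h per day, and 5 µL eye drops were then given for 14 days. Every library, Control included, carries the model's condition tag (CLDE) and the same treatment tag (wild-type). The labels therefore do not settle whether Control mice were untreated, and Control is used only as the title gives it. The time of day at which corneas were taken is not given in the sources used here.

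The mammalian clock is a loop of transcription factors present in most cells, the corneal epithelium included. CLOCK, or its relative NPAS2, pairs with BMAL1 and switches on genes through E-box elements, among them the Per and Cry genes, whose proteins then shut the pair down. A second loop runs through Nr1d1 and Nr1d2, which encode the nuclear receptors REV-ERBα and REV-ERBβ and repress Bmal1, Npas2, Nfil3 and Clock through RORE elements. Dbp and Tef encode PAR bZIP activators that carry the rhythm to outputs through D-box elements, where NFIL3 competes with them. Ciart encodes a repressor of the CLOCK and BMAL1 pair. In peripheral mouse tissues Nr1d1, Dbp, Ciart, Tef, Nr1d2 and the Per genes rise during the day and into the evening, here called the day arm. Bmal1, Npas2, Clock, Nfil3 and, with a delay, Cry1 peak in the other part of the cycle, here called the night arm. A shift of phase may move the arms in opposite directions, while a change in all clock transcripts would move them together. Peaks within an arm are spread in time and the time of collection is not given. A shift therefore need not move every gene of an arm the same way.

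The elements named above can be read in the promoters of some of these genes, and 4 windows are shown because the transcripts behind them followed Dbp across libraries (Tef, Per3, Ciart) or were low in the libraries where Dbp was high (Bmal1). The sequences are from RefSeq on build GRCm38.p6 and run 5′ to 3′ on the gene's strand, from 250 bases before to 50 bases after an annotated start. Capitals mark matches, on either strand, to the E-box CACGTG, the D-box TTATGTAA or TTACGTAA, and the RORE. The same search covered the E-box variant CACGTT and the cAMP response element TGACGTCA, and no motif overlapped another in the windows shown. Ciart lies at chr3:95882179-95882478 (minus strand), Per3 at chr4:151044616-151044915 (minus strand), Tef at chr15:81802423-81802722 (plus strand) and Bmal1 at chr7:113207261-113207560 (plus strand).
Ciart: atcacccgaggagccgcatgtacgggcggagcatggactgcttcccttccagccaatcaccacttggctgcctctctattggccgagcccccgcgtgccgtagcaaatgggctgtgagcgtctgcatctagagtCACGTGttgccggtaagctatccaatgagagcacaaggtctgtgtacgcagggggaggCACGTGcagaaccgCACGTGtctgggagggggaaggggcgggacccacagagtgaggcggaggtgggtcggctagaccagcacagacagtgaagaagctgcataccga
Per3: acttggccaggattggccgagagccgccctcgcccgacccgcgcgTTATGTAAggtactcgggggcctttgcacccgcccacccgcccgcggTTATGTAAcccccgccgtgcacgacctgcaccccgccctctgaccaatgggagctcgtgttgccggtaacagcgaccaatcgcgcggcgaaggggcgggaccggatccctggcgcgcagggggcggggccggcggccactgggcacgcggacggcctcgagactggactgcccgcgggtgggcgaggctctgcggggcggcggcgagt
Tef: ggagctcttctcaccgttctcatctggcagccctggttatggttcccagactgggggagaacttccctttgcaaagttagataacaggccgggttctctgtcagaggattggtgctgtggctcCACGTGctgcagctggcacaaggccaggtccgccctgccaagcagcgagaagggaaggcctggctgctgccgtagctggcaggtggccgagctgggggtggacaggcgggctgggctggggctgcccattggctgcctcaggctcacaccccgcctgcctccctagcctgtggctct
Bmal1: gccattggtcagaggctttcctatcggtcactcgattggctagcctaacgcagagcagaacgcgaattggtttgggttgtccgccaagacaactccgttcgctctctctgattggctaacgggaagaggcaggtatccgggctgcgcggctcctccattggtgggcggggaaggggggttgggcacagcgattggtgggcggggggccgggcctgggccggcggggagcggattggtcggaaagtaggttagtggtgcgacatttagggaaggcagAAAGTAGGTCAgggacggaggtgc

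The Ciart window held 3 E-boxes, at positions -116, -58 and -44 from the start, and the Per3 window held 2 D-boxes, at -205 and -158. Tef had 1 E-box in each of its 2 annotated promoters, and the window shown has it at position -127. The second of the 2 Bmal1 windows held 1 RORE, at position 27, after the start. Over all 32851 promoters of this length, 7.15% held an E-box, 4.68% the variant CACGTT, 1.06% a D-box, 1.79% a cAMP response element and 0.38% a RORE. Among the other members, 1 of the 2 Per1 windows held an E-box, the Cry1 window an E-box and the variant, and the Nr1d1 window the variant. No match was found in the windows of Dbp, Clock or Nr1d2. Promoters of 9 of the 10 members were matched, and Per2 was not among them. A match is a description of the letters and not evidence of binding.

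Total counts ran from 32486043 to 39193311 per library. Levels below are counts scaled to library size (CPM) with TMM, a correction for library composition, and logs are to base 2. The corneal keratin Krt12 was high in every library, at 8350 to 9075 CPM, while transcripts of neighbouring eye tissues were present and differed between libraries. The summed level of 8 retina markers was 4722 to 7032 CPM in Control and 1820 to 5844 CPM in Cationorm, all 8 being lower on average in Cationorm. The groups overlapped in it through Cationorm 3 alone, so a fit with it as a covariate can only partly tell it apart from group. The summed level of 6 iris and pigment cell markers was 414 to 1029 CPM and 1146 to 1448 CPM, all 6 being higher. This level separated the groups, so a fit with it as a covariate cannot tell it apart from group. Skeletal muscle (6 markers) ran from 34.7 to 956 CPM over the 6 libraries, and lens (5 markers) from 40.9 to 3382 CPM. The 5 keratocyte markers, all lower on average in Cationorm, summed to 1094 and 1056 CPM in Cationorm 2 and 3 and to 1569 to 1845 CPM in the other 4 libraries. The 5 vascular markers, all higher, ran from 46.9 to 75.6 CPM over the 6 libraries. Their part in the results on clock genes was not tested, apart from fits with a list's level as a covariate, which are given where they bear on a result. In bulk tissue, fewer cells of a type and less RNA per cell cannot be told apart.

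All 10 clock genes were expressed in every library, and none passed the test between Cationorm and Control. The edgeR quasi-likelihood test called 0 of 10 members, against 0% of the 18804 genes tested, with adjusted p-values from 0.550 to 0.930. DESeq2 called 0 members and 55 genes in all. At an unadjusted p under 0.05 there were 2 members, Nr1d1 (higher in Cationorm) and Cry1 (lower), against 8.73% of all genes tested. Members split evenly by sign, with 5 higher and 5 lower, and their median log2 fold change was 0.014, against 0.005 over all genes. Libraries of the groups did not overlap for 1 member, Nr1d1, against 14.8% of all genes tested. Counts of 1 or 2 among 10 members are too few to set them apart from those shares.

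**Figure D1:**
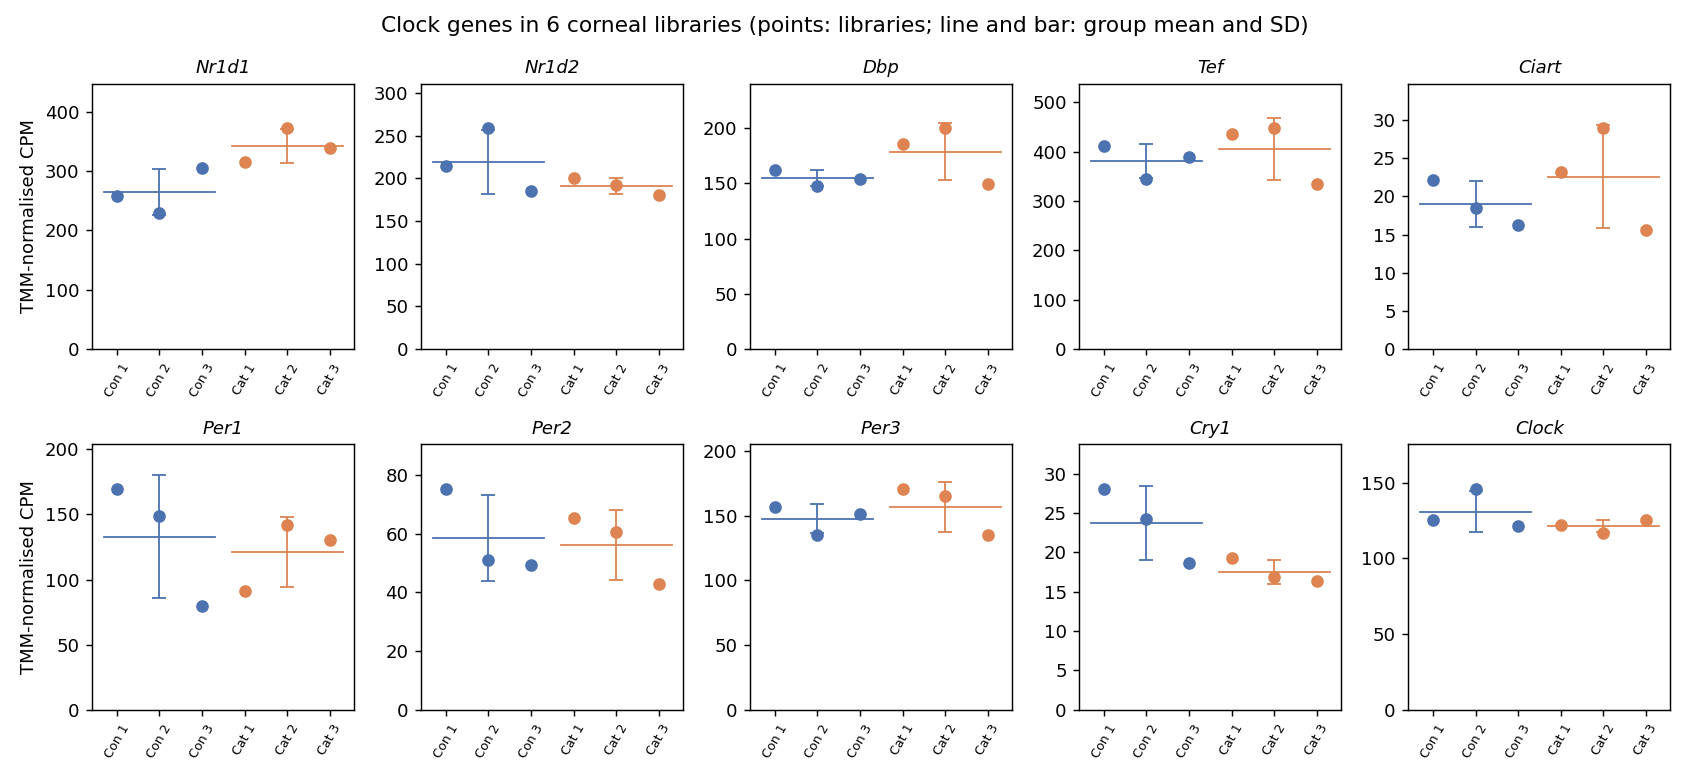
Levels of the 10 clock genes in each library, in TMM-normalised CPM on axes that start at 0; points are libraries (blue Control, orange Cationorm), and the line and bar are the group mean and SD. Nr1d1 is the member whose groups do not overlap, while the widest spread is that of Per1, from 79.7 to 169.9 CPM.

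Nr1d1, the heme-binding repressor of Bmal1, had Control levels of 258, 229.7 and 306 CPM (replicates 1 to 3) and Cationorm levels of 316, 373 and 339 CPM. Every Cationorm library was above every Control library, by a narrow margin between Control 3 and Cationorm 1. The log2 fold change was 0.38 ± 0.12 (SE), with a 95% interval of 0.10 to 0.65, and the gene did not pass the edgeR test (adjusted p = 0.550). It was 0.27 without Control 2, 0.30 without Cationorm 2 and 0.49 without Control 3. With the iris and pigment level, which separated the groups, as a covariate it was 0.14. Exons of Nr1d1 overlap those of the thyroid receptor gene Thra on the other strand, over 8.5% of Nr1d1's exonic bases in GENCODE M21 (GRCm38). Strand use in counting is not given in the sources used here, so reads there cannot be told apart. Thra itself was at 98.2 to 119 CPM.

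Nr1d2, the paralog of Nr1d1 with the same DNA target, did not share its pattern. It had Control levels of 214, 259 and 185 CPM and Cationorm levels of 199.8, 192 and 180.4 CPM. Control 2, the lowest library for Nr1d1, was the highest for Nr1d2, and the groups overlapped. The log2 fold change was -0.20 ± 0.12 (SE), with an interval of -0.49 to 0.08 (edgeR adjusted p = 0.578). It was -0.08 without Control 2 and -0.31 without Control 3. With the iris and pigment level, which separated the groups, as a covariate it was 0.09. The ratio of Nr1d1 to Nr1d2 counts was 1.21, 0.886 and 1.65 in Control 1 to 3 and 1.58, 1.95 and 1.88 in Cationorm 1 to 3. This ratio does not depend on library scaling, and it overlapped between groups through Control 3. The pairs of genes set against each other as ratios, here and further on, were chosen after the levels were seen.

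Dbp, the PAR bZIP activator most often taken as a readout of clock phase, had Control levels of 162, 148 and 154 CPM and Cationorm levels of 186, 200.2 and 149.7 CPM. Cationorm 1 and 2 were above every Control library, and Cationorm 3 lay within the Control range. The log2 fold change was 0.21 ± 0.11 (SE), with an interval of -0.05 to 0.47 (edgeR adjusted p = 0.551). It was 0.32 without Cationorm 3, 0.10 without Cationorm 2 and -0.02 with the retina level as a covariate. Dbp shares 18.0% of its exonic bases with Sphk2 on the other strand, in the same annotation. Sphk2, a sphingosine kinase gene, ran from 80.8 to 91.4 CPM.

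Tef, the second PAR bZIP activator, had nearly the same order of libraries. It had Control levels of 412, 344 and 388 CPM and Cationorm levels of 435, 448 and 334 CPM, with Cationorm 1 and 2 highest and Cationorm 3 lowest. Ciart, the repressor with the E-boxes shown above, had Control levels of 22.2, 18.5 and 16.3 CPM and Cationorm levels of 23.2, 29.0 and 15.6 CPM. Its highest library was again Cationorm 2 and its lowest Cationorm 3, 1.86-fold apart. The log2 fold changes of 0.09 ± 0.12 for Tef and 0.25 ± 0.23 (SE) for Ciart did not pass (edgeR adjusted p = 0.809 and 0.692). Without Cationorm 3 they were 0.21 and 0.46, and without Cationorm 2 they were -0.01 and 0.01. With the retina level as a covariate they were -0.17 and -0.20.

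The Per genes encode the repressors that, with the CRY proteins, close the loop, and the 3 genes differed in their spread. Per3 had Control levels of 157, 135 and 151 CPM and Cationorm levels of 171, 165 and 135 CPM, a range of 1.27-fold. It followed Dbp and Tef, with Cationorm 1 and 2 highest. Per2 had Control levels of 75.3, 50.9 and 49.3 CPM and Cationorm levels of 65.3, 60.5 and 42.7 CPM. Here Control 1 was the highest library and Cationorm 3 the lowest. Log2 fold changes were 0.09 ± 0.11 (SE) for Per3 and -0.06 ± 0.21 for Per2 (edgeR adjusted p = 0.762 and 0.930).

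Per1, which besides its E-box control is known to respond quickly to glucocorticoids and to cAMP signalling, varied most of the members. It had Control levels of 169.9, 149 and 79.7 CPM and Cationorm levels of 90.9, 142 and 130.2 CPM. Control 3 and Cationorm 1 were low and the other 4 libraries high, so the spread lay within both groups. The log2 fold change was -0.14 ± 0.29 (SE), with an interval of -0.81 to 0.54 (edgeR adjusted p = 0.879). It was -0.40 without Control 3 and 0.08 without Control 1. With the iris and pigment level, which separated the groups, as a covariate it was 0.81. The ratio of Per1 to Per3 was 1.08 and 1.11 in Control 1 and 2, 0.527 in Control 3, 0.53 in Cationorm 1, and 0.861 and 0.962 in Cationorm 2 and 3.

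Cry1, the repressor of the loop that belongs to the night arm, had Control levels of 28.1, 24.3 and 18.7 CPM and Cationorm levels of 19.3, 16.9 and 16.4 CPM. Control 1 and 2 stood above all Cationorm libraries, and Control 3 lay below Cationorm 1. The log2 fold change was -0.44 ± 0.16 (SE), with an interval of -0.80 to -0.07, and the gene did not pass (edgeR adjusted p = 0.550). It was -0.29 without Control 1, -0.58 without Control 3 and -0.40 with the retina level as a covariate. With the iris and pigment level, which separated the groups, as a covariate it was -0.10. Clock, which encodes the partner of BMAL1, was the steadiest member by its ratio of highest to lowest library, at 1.25. It had Control levels of 125, 146 and 121 CPM and Cationorm levels of 122, 117 and 125 CPM, with Control 2 standing alone. Its log2 fold change was -0.11 ± 0.08 (SE; edgeR adjusted p = 0.648), and -0.04 without Control 2.

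**Figure D2:**
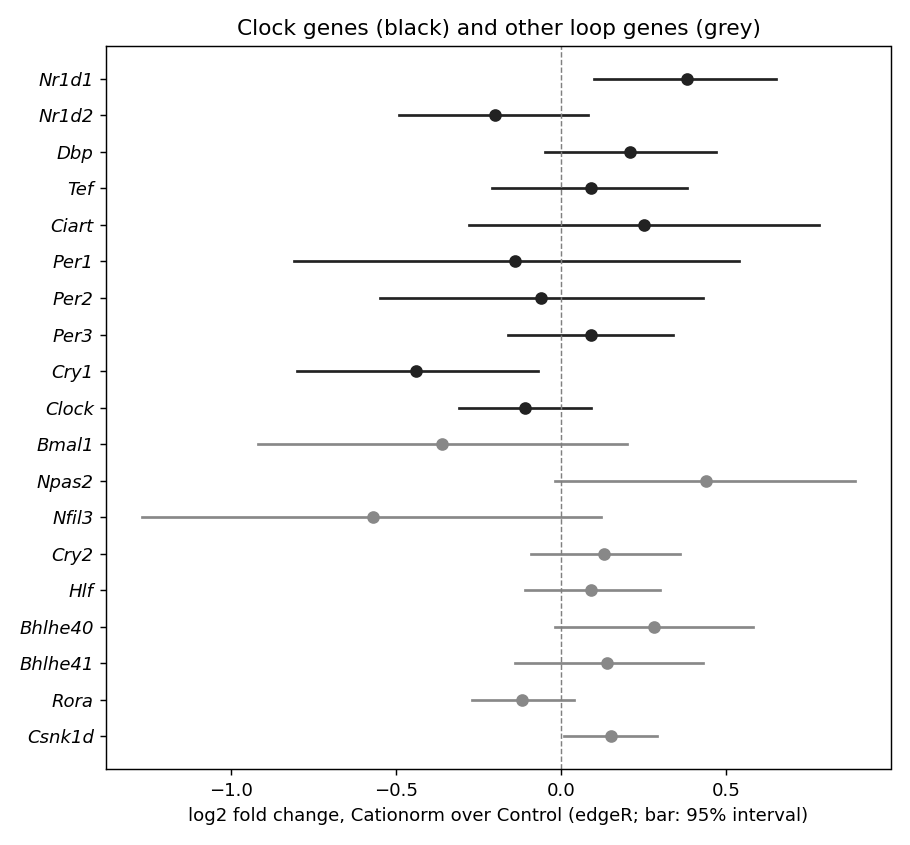
Log2 fold change of Cationorm over Control by edgeR for the 10 members (black) and 9 other genes of the loop (grey), with bars for the 95% interval. The intervals of Nr1d1, Cry1 and Csnk1d lie to one side of 0, and no gene passed after adjustment over all genes.

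Per kilobase of exon, which allows genes to be compared, Nr1d1 was the most abundant member at 98.7 CPM per kb. Its lowest library (74.6) exceeded the highest library of every other member. Dbp (49.3 to 66.9), Tef (42.4 to 56.9) and Nr1d2 (33.4 to 47.9 CPM per kb) came next, with ranges that overlapped between neighbours. Per1 (22.6) and Per3 (15.9) also overlapped with each other. Per2 (9.79), Ciart (9.19) and Clock (9.18 CPM per kb) did not separate, and Cry1 was lowest at 6.17. Bmal1 was at 2.11, Npas2 at 1.85 and Nfil3 at 1.24 CPM per kb. The night-arm genes other than Clock were thus below every day-arm member on average. Lengths are the union of all annotated exons of a gene in GENCODE M21 on GRCm38, while the files are of a later build. The ranges over libraries carry no error in length, so the order is approximate also where they do not overlap.

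To ask whether members differed in a phase-like way, each gene's log2 CPM was centred on its mean over the 6 libraries and averaged by arm. The day arm (8 members) was at 0.06 in Cationorm 1 and 0.21 in Cationorm 2, where the night arm (5 genes) was at -0.31 and -0.15. In Cationorm 3 the order was the other way round, with the day arm at -0.15 and the night arm at 0.12. Control 2 and Control 3 had the day arm at -0.07 and -0.17 and the night arm at 0.12 and 0.02. In Control 1 both arms were above the mean, at 0.12 and 0.20. Opposite signs of the arms were thus seen in 5 of 6 libraries. In Control 3 this rests on a night arm of 0.02, with 2 of 5 genes above their means. In Cationorm 1 the night arm held Nfil3 at -0.89, from 40 counts, and leaving Nfil3 out was not tried. Centring on the same 6 libraries also ties the signs to one another. The day arm was above the night arm in Cationorm 1 and 2 but not in the other 4. The summed retina markers were low in these same libraries, at 2329 and 1820 CPM against 4722 to 7032 CPM in the other 4. With the retina level as a covariate the fold changes of Dbp, Tef, Ciart and Per3 were -0.02, -0.17, -0.20 and -0.10, and that of Bmal1 was 0.15, each with the sign opposite to that without it. Their unadjusted edgeR p-values in that fit ran from 0.213 (Tef) to 0.838 (Dbp). The retina level was low in the very libraries that make the contrast between arms, so the fit cannot tell them apart. The part of retina transcripts in the arms' values was not tested. These averages are a description, since the genes share libraries and were chosen with earlier results known.

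The difference between the arms was 0.37 and 0.36 in Cationorm 1 and 2, -0.27 in Cationorm 3, and -0.08, -0.19 and -0.19 in Control 1 to 3. The groups overlapped through Cationorm 3. The mean difference between groups was 0.31, with a within-group SD of 0.26, and it was 0.52 without Cationorm 3, 0.20 without Cationorm 1 and 0.21 without Cationorm 2. Within the arms the genes did not move as 1 block. In Cationorm 1, 6 of 8 day-arm genes were above their means, while Per1 (-0.43) and Nr1d2 (-0.03) were below. In Cationorm 2, Nr1d2 (-0.08) was the 1 day-arm gene below its mean. Npas2 was highest in Cationorm 2 (deviation 0.43), where the other 4 night-arm genes were below their means.

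**Figure D3:**
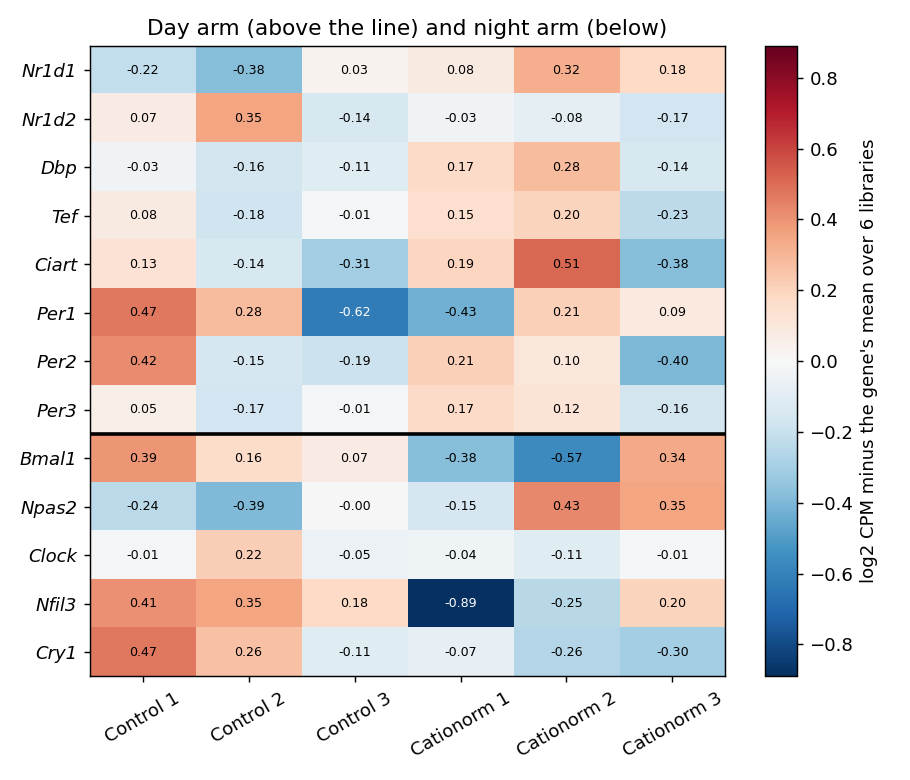
Deviation of log2 CPM from each gene's mean over the 6 libraries, with day-arm genes above the line and night-arm genes below it. In Cationorm 1 and 2 most day-arm cells are red and most night-arm cells blue, the exceptions being Per1 in Cationorm 1 (-0.43), Nr1d2 in both (-0.03 and -0.08) and Npas2 in Cationorm 2 (0.43).

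Bmal1, which encodes the partner of CLOCK and is the direct target of REV-ERBα repression, had Control levels of 20.2, 17.2 and 16.1 CPM and Cationorm levels of 11.8, 10.4 and 19.6 CPM. Cationorm 1 and 2 were the lowest libraries, and Cationorm 3 lay among the Control libraries. The log2 fold change was -0.36 ± 0.24 (SE; edgeR adjusted p = 0.603), and -0.69 without Cationorm 3 (edgeR adjusted p = 0.075, the lowest over the 16 alternative fits). The retina markers were also lowest in those libraries, and their sum over libraries 1 to 3 came to 7032, 6149 and 4722 CPM (Control) and 2329, 1820 and 5844 CPM (Cationorm). Rorb, a nuclear receptor gene of the retina, had Control levels of 46.9, 38.7 and 39.5 CPM and Cationorm levels of 18.2, 10.5 and 42.6 CPM. Its log2 fold change was -0.81 ± 0.45 (SE; edgeR adjusted p = 0.561), and without Cationorm 3 it was -1.54 and passed (adjusted p = 0.035), as 1 of 350 genes called in that fit. With the retina level as a covariate it was 0.00. With the retina level as a covariate the Bmal1 fold change was 0.15 and did not pass. That fit cannot tell the retina level from whatever else set Cationorm 1 and 2 apart. Whether the retina transcripts account for the level of Bmal1 was thus not tested. The ratio of Dbp to Bmal1 was 8.02, 8.57 and 9.51 in Control and 15.7, 19.3 and 7.65 in Cationorm.

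Npas2 and Nfil3, the remaining night-arm genes, went different ways. Npas2 had Control levels of 7.35, 6.58 and 8.66 CPM and Cationorm levels of 7.81, 11.7 and 11 CPM, with a log2 fold change of 0.44 ± 0.19 (SE; edgeR adjusted p = 0.550). Cationorm 2 and 3, its highest libraries, were the lowest for Cry1 and for the keratocyte markers, whose part was not tested. Nfil3, the repressor that competes for D-boxes, had Control levels of 3.20, 3.09 and 2.73 CPM and Cationorm levels of 1.27, 2.02 and 2.77 CPM. Its lowest value rested on 40 counts, in Cationorm 1. Its log2 fold change was -0.57 ± 0.30 (SE; edgeR adjusted p = 0.550), and the groups overlapped through Cationorm 3. It was -0.33 without Cationorm 1, -0.87 without Cationorm 3 and -0.16 with the retina level as a covariate.

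**Figure D4:**
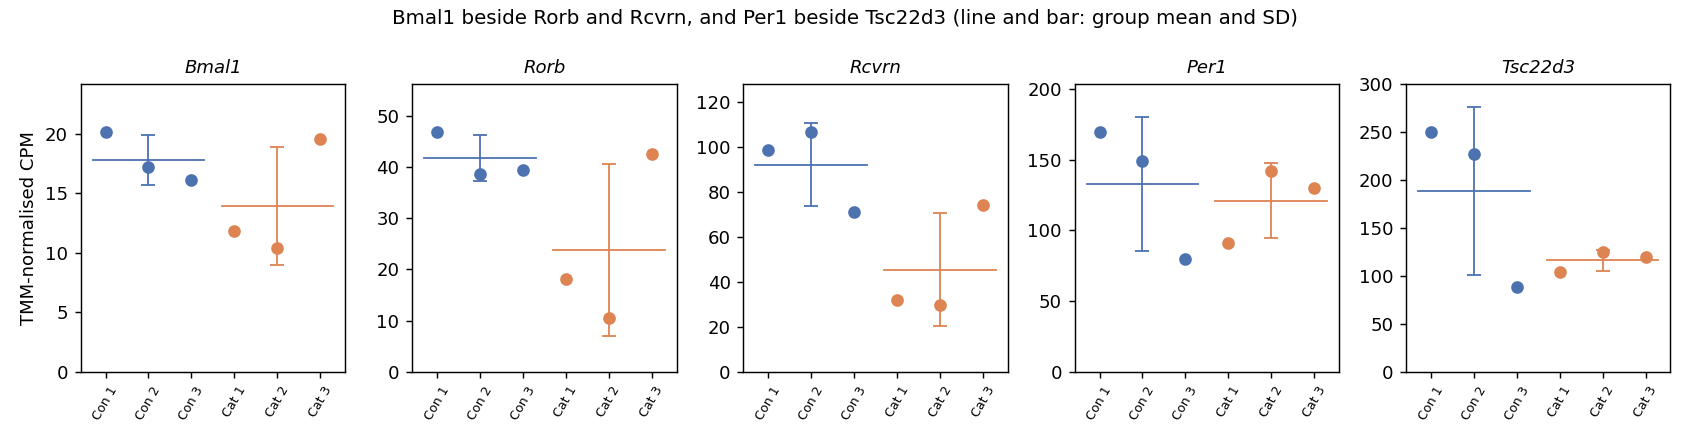
TMM-normalised CPM of Bmal1 beside Rorb and the photoreceptor gene Rcvrn, and of Per1 beside Tsc22d3, in each library; line and bar are the group mean and SD. Bmal1, Rorb and Rcvrn are all lowest in Cationorm 1 and 2, and Tsc22d3 is high in Control 1 and 2, at 250.1 and 227 CPM.

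Across the 6 libraries the log2 level of Dbp was compared with those of the other 9 members and of Bmal1, Npas2 and Nfil3. The strongest positive relations were with Ciart (Pearson r = 0.91, exact permutation p = 0.007; Spearman rho = 0.83, p = 0.058), Tef (r = 0.89, p = 0.026; rho = 0.94, p = 0.017) and Per3 (r = 0.87, p = 0.039; rho = 0.94, p = 0.017). After Benjamini-Hochberg adjustment over the 12 relations, none passed: the exact permutation p was 0.083 for Ciart and 0.117 for Tef and Per3 by Pearson's r, and 0.175, 0.100 and 0.100 by Spearman's rho. Without Cationorm 1 and 2, the libraries farthest from the median of Dbp, r was 0.71, 0.92 and 0.92 for Ciart, Tef and Per3. Taken as deviations from the group means, r was 0.94, 0.96 and 0.89. These 3 relations kept their sign without those libraries, though Dbp then spans only 148 to 162 CPM and these r values were not tested.

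The relations of Dbp with Bmal1 and Nfil3 no longer held without Cationorm 1 and 2, where the 4 libraries left span only 148 to 162 CPM of Dbp. As deviations from the group means they were -0.83 and -0.58. For Bmal1 r was -0.89 (exact permutation p = 0.037, adjusted 0.117; rho = -0.60, p = 0.242, adjusted 0.362), and 0.45 without Cationorm 1 and 2. For Nfil3 r was -0.75 (exact permutation p = 0.068, adjusted 0.163; rho = -0.60, p = 0.242, adjusted 0.362), and 0.43 without them. Clock had r = -0.64 (exact permutation p = 0.138, adjusted 0.275; rho = -0.83, p = 0.058, adjusted 0.175) and -0.56 without them. Per1 had r = -0.05 (exact permutation p = 0.936, adjusted 0.936; rho = -0.09, p = 0.919, adjusted 0.919), and 0.21 without Cationorm 1 and 2. The other 5 relations had r between -0.31 (Cry1) and 0.60 (Nr1d1), with exact permutation p-values adjusted over the 12 relations from 0.329 to 0.685. Their rho lay between -0.09 and 0.60, with adjusted values from 0.362 to 0.919. Without Cationorm 1 and 2, r changed sign for Nr1d1 (0.60 to -0.07), Npas2 (0.39 to -0.17) and Cry1 (-0.31 to 0.55). It kept its sign for Per2 (0.87) and Nr1d2 (-0.18).

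**Figure D5:**
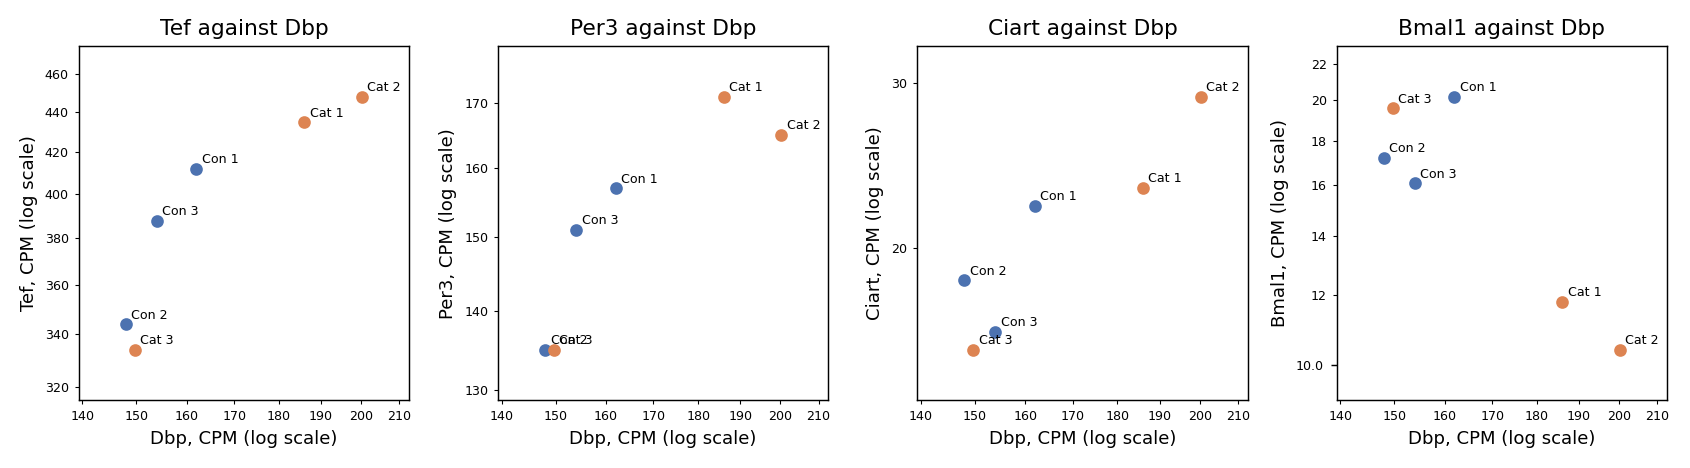
Tef, Per3, Ciart and Bmal1 against Dbp in the 6 libraries, in TMM-normalised CPM on log axes; blue points are Control and orange points Cationorm. Tef, Per3 and Ciart rise with Dbp (r of 0.89, 0.87 and 0.91), and Bmal1 is low in Cationorm 1 and 2 alone.

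The spread between libraries differed widely among members. The SD of log2 CPM over the 6 libraries had a median of 0.225 over the 10 members, against 0.197 over all 18804 genes tested and 0.131 over the 12057 genes with a mean of at least 5 CPM. Against the median of all genes tested, 5 of the 10 members had a larger SD (Per1, Ciart, Cry1, Per2 and Nr1d1), and against that of the 12057 genes all but Clock did. Per1 (0.43) was above 92.1% of the 12057 genes, Ciart (0.34) above 89.0%, Cry1 (0.31) above 87.1% and Per2 (0.30) above 86.5%. Clock (0.11) was above 40.0% and Per3 (0.14) above 56.5%. This is a description of these libraries and was not tested.

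Of 24 other genes of the clock and its outputs, 14 had a higher and 10 a lower mean level with Cationorm (median log2 fold change 0.035), and 0 passed the edgeR test (0% of all genes tested). Csnk1d, the kinase that marks PER proteins for turnover, was the 1 gene with an unadjusted edgeR p under 0.05, against 8.73% of all genes tested. Csnk1d had a Control mean of 157 ± 3.20 CPM and a Cationorm mean of 174 ± 6.70 CPM (SD, n = 3 per group). Its log2 fold change was 0.15 ± 0.06 (SE; edgeR adjusted p = 0.550). Bhlhe40, an E-box repressor, had 0.28 ± 0.13 and its paralog Bhlhe41 had 0.14 ± 0.12. Bhlhe40 was highest in Cationorm 1 and 2, at 271 and 297 CPM, against 193 to 255 CPM in the other 4 libraries. Hlf, the third PAR bZIP gene, was at 399 ± 32.1 and 426 ± 32 CPM, and Cry2 at 65.6 ± 7.82 and 71.9 ± 2.63 CPM (SD, n = 3 each). Rora, which activates through the RORE, was at 90.1 ± 2.74 and 83.2 ± 4.89 CPM (edgeR adjusted p = 0.572). Groups did not overlap for 2 of the 24 genes, Rora and Csnk1d, against 14.8% of all genes tested.

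Among the outputs on that list, Tsc22d3, a glucocorticoid-induced gene that also cycles in many tissues, stood beside Per1. It had Control levels of 250.1, 227 and 88.3 CPM and Cationorm levels of 104, 125 and 120 CPM. Like Per1, it was high in Control 1 and 2 and lowest in Control 3, but it was low in Cationorm 2 and 3, where Per1 was high. Usp2, a ubiquitin protease gene with clock-driven expression, had Control levels of 50.2, 42.3 and 32 CPM and Cationorm levels of 27.0, 39.9 and 36.9 CPM, so that Control 1 and 2 were again highest. Wee1, a cell cycle kinase gene with E-box control, was at 68.3 and 67.2 CPM in Control 1 and 2 and at 37.9 to 54.6 CPM in the other 4 libraries. Adjusted p-values by edgeR were 0.550 for Tsc22d3, 0.631 for Usp2 and 0.712 for Wee1. Tsc22d3, Usp2, Wee1 and Rorb were singled out after their values were seen.

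The genes whose pattern was most like the mean of the day arm were Mdc1, Mmp28, Nmral1, Arfrp1 and Slc29a1, with Pearson's r of 0.988 to 0.977 over the 6 libraries. Mdc1, which encodes a DNA damage mediator, ran from 36.8 to 44.6 CPM. The most opposite were Tmtc2, Cpped1, Dtx4, Insig2 and Clcn3, with r from -0.976 to -0.937. Tmtc2 ran from 16.6 CPM in Cationorm 2 to 23.1 CPM in Cationorm 3. These genes were picked from 12057 for their r over 6 values, so high values are a property of the selection. In the same ranking Ciart, itself part of the mean, stood at place 8 (r = 0.97). Of the other genes in that mean, Dbp (0.83), Per2 (0.82), Tef (0.81) and Per3 (0.72) had high r, while Per1 had 0.44, Nr1d1 0.19 (place 4842) and Nr1d2 0.10 (place 5926). Tspan4, an output gene of the list, stood at place 123 (r = 0.85), and Bmal1 at place 11378 (r = -0.57).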

How the data were processed

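Raw whole-number counts per gene symbol were deposited by the authors, with 1 column per library, per the file headers. Each column was assigned through the library name that the labels give. Per the submitters' processing notes, DESeq2 was among the tools and GRCm39 and mm39 were the builds named, without roles. No aligner, counter, annotation or strandedness is given in the sources used here. The fit used all genes: filterByExpr kept 18804 of 35673, followed by TMM and the quasi-likelihood test of edgeR 4.0.16 in R 4.3.3, on group alone. P-values were adjusted by Benjamini-Hochberg, with 0.05 as the threshold. Standard errors came from the fold change and F statistic. Log2 CPM used a prior count of 2. Correlations used all 720 pairings of 6 libraries, two-sided. The smallest level that can be told from 0, taken as 3 counts, was 0.0765 to 0.0923 CPM and covers counting error only. Nothing states that replicates came from separate mice, so p-values reflect only how these samples vary, which may be technical variation. The labels give a single batch.

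The members and gene lists were chosen with earlier results of these data known. By rule, the text names all members, Bmal1, Npas2, Nfil3, Cry2, Hlf, Bhlhe40, Bhlhe41, Rora, any listed clock gene with an unadjusted p under 0.05, and the 5 genes most like and most unlike the day arm with a mean of at least 5 CPM, without predicted gene models. Alternatives were other size factors, omission of the filter or a tighter one (3 libraries at 1 CPM or more, and a total of 50 counts), limma-voom 3.58.1, DESeq2 1.42.0, a block on replicate number, omission of each library in turn, and covariates for the retina, the iris and pigment, and the muscle marker level. For correlations, a prior count of 0.5 and deviations from group means were tried, and for the arms, genes left out. Some genes that the rule or lists name are not reported here. The lens marker Lim2 was not among the symbols. The edgeR fit was run on simulated counts with the same dispersion for every gene and no differences in tissue content. That run does not show how the fit performs on these libraries.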

Additional observations from a re-analysis of the deposited data

How the results depend on the processing

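No clock member was called under any of the 16 alternative fits. Over all genes, DESeq2 called 55, and leaving out 1 library gave 0 to 350 calls, the latter without Cationorm 3, with 8 without Control 3 and 1 without Control 2. The cause was not tested. With the replicate number as a block, 0 genes and 0 members were called, with a log2 fold change of 0.38 for Nr1d1. Same-numbered libraries did not deviate together (r = -0.178, -0.306 and -0.163). With 3 libraries per group this does not settle whether they were handled together. Over these fits, 143 member fold changes kept their sign and 17 did not. Those that changed sign with the retina covariate were Per1 (0.12), Per3 (-0.10), Dbp (-0.02), Tef (-0.17) and Ciart (-0.20). With the iris and pigment covariate, whose level separated the groups, they were Per1 (0.81), Per2 (0.09), Per3 (-0.02), Clock (0.04), Nr1d2 (0.09) and Tef (-0.0040). The cause was not tested. With 1 library left out, fold changes ran from -0.40 to 0.08 for Per1, -0.18 to 0.16 for Per2 and -0.01 to 0.21 for Tef. Of the 36 correlations with Dbp recomputed on all libraries, 4 changed sign, all as deviations from the group means: Per1 (0.02), Cry1 (0.28), Nr1d2 (0.08) and Npas2 (-0.06). The difference between arms stayed positive, at 0.26 without Bmal1 (added after seeing the data), 0.28 without Cry1 and Clock and 0.36 without Per1 and Per2. For the correlations taken as deviations from the group means, the permutations were limited to those within groups. This was done after a first, free permutation, which is not valid for centred values, had shown Tef past the threshold. With the limit Tef had r = 0.96 and an adjusted p of 0.333 (exact permutation), with too few permutations for 1 relation to pass on its own. Members had at least 573 counts in every library, and Nfil3 as few as 40.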

Other observations

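Genes that set the lifetime of clock proteins did not pass the edgeR test either. Csnk1e, a kinase that acts on PER proteins beside Csnk1d, had means of 62.6 ± 5.60 CPM (Control) and 64.2 ± 2.03 CPM (Cationorm; SD, n = 3 per group), with a log2 fold change of 0.04 ± 0.08 (SE) and a 95% interval of -0.15 to 0.22. Btrc, the adaptor for PER proteins, had a log2 fold change of 0.03 ± 0.13 and an interval of -0.28 to 0.34. Bmal2, the paralog of Bmal1, was at 19.1 ± 1.97 and 20.6 ± 2.20 CPM, and it did not show the low values of Bmal1 in Cationorm 1 and 2, where it was at 23.0 and 18.7 CPM. Por, the electron donor of cytochrome P450 enzymes and a clock output in liver, was at 232 ± 5.01 and 228 ± 16.4 CPM. These genes were picked from the clock list after their values were seen.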
